A study of Mus musculus with 9 samples.

Results

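Primary (azurophil) neutrophil granule genes were described in c-KIT+ bone marrow cells, as a list of 8 genes out of 43629 Ensembl genes measured. The list was Mpo, the serine protease genes Elane, Prtn3, Ctsg and Prss57, the proteoglycan gene Srgn, and Nkg7 and Igsf6, a pair of membrane proteins expressed with them. All 8 were found by symbol, and all 8 reached the level at which genes were tested. The members are named genes, chosen with earlier results of these data known. On GRCm38, Elane (chr10:79886247-79888215), Prtn3 (chr10:79874476-79883174) and Prss57 (chr10:79781474-79790961) lie in 1 cluster of chromosome 10, and Srgn lies elsewhere on it (chr10:62493833-62527451). Mpo lies at chr11:87793581-87804413, Ctsg at chr14:56099881-56102574, Nkg7 at chr7:43437073-43438249 and Igsf6 at chr7:121064067-121074572, and values refer to all exons of a gene.

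RNA was sequenced from 3 groups of pIpC-treated C57BL/6 mice, with 3 libraries each. The cells were taken from bone marrow by positive selection for CD117 (c-KIT), a receptor of stem and progenitor cells and of mast cells, so each library is a mixture. KI_Chd7del carried Chd7f/f, Mx1-Cre and Cbfb+/56M, that is, floxed alleles of the chromatin remodeller Chd7, a Cre recombinase under the interferon-responsive Mx1 promoter, and 1 Cbfb allele that yields the CBFB-MYH11 leukaemia fusion once Cre has acted. KI carried Mx1-Cre and Cbfb+/56M, with Chd7 not floxed. WT was labelled wild type, with no Mx1-Cre in its label, so KI against WT measures the fusion and Cre together. Mx1-Cre acts in every cell that answers interferon, not in one blood lineage, and pIpC was given to all 3 groups. Age is not given in the sources used here, and no label states whether each library is a mouse of its own. The p-values below therefore refer to the spread among libraries, which may be technical. In bulk RNA, fewer cells of a type and less RNA per cell cannot be told apart.

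Neutrophil granules are filled in waves, and the primary granules are made first, at the promyelocyte stage. Myeloperoxidase (Mpo) makes hypochlorous acid from hydrogen peroxide and chloride. Elane (neutrophil elastase), Prtn3 (proteinase 3), Ctsg (cathepsin G) and Prss57 (neutrophil serine protease 4) are related trypsin-fold proteases, activated by removal of a dipeptide by cathepsin C and stored on the sulphated chains of serglycin, the product of Srgn. The factors C/EBP, PU.1, MYB and RUNX1 with its partner CBFB are known regulators of these promoters, and CBFB is the protein altered in the fusion.

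The values are the authors' normalised values, and they summed to 37538447 to 38076394 in KI_Chd7del libraries, to 37716763 to 39002839 in KI and to 43222301 to 46159426 in WT. If the values are reads divided by 1 size factor per library, as gaps among low values hint, about 39.3 M to 47.5 M reads stood behind a library. Kit, whose protein the cells were selected on, had 6131, 7732 and 8508 in KI_Chd7del, 3868, 3226 and 3521 in KI, and 7362, 7354 and 7797 in WT. Kit was called higher in KI_Chd7del than in KI (log2 1.07, limma adjusted p = 0.000212) and lower in KI than in WT (log2 -1.09, limma adjusted p = 3.88e-05). It did not pass in KI_Chd7del against WT (log2 -0.02). A relation of this difference to the members was not tested. Myh11, which gives the fusion its tail, had 164 to 187 in KI_Chd7del, 176 to 219 in KI and 5 to 9 in WT. Chd7 had 1794 to 1921 in KI_Chd7del, 1979 to 2934 in KI and 3471 to 3982 in WT, and the difference of KI_Chd7del from KI did not pass the test (log2 -0.29, SE 0.14, limma adjusted p = 0.121). A value over the whole gene does not show the loss of an exon, so it is a weak check of the floxed alleles.

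The members were abundant. Together they made up 0.819% to 1.11% of all values in KI_Chd7del, 0.493% to 0.646% in KI and 0.905% to 1.06% in WT. By value, not corrected for gene length, Mpo was the highest member and ranked between 6 and 14 among all genes in every library. Elane ranked 104 to 178 in KI_Chd7del, 188 to 442 in KI and 24 to 26 in WT. Prss57 was the lowest, with a rank of 3549 to 4760 in KI_Chd7del, 5664 to 7429 in KI and 2321 to 2585 in WT.

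Per kb of exon, the order of the levels differed between the groups at its upper end. Exon lengths were those of GENCODE M21, and the annotation behind the values is not given in the sources used here. Other lengths could change the order of genes within a group. In KI_Chd7del the level was 61940 ± 12177 for Mpo, 43928 ± 7519 for Ctsg, 31704 ± 6801 for Elane and 21994 ± 1846 for Prtn3 (normalised value per kb, SD, n = 3). The same order held in KI, with 31492 ± 4607 for Mpo, 26319 ± 5731 for Ctsg, 18060 ± 4977 for Elane and 13468 ± 2125 for Prtn3. In WT Elane came first at 87200 ± 5142, above Mpo at 62395 ± 6448, Prtn3 at 31773 ± 1278 and Ctsg at 30790 ± 3886. Among neighbours in these orders, the libraries overlapped for Elane and Prtn3, Mpo and Ctsg, Ctsg and Elane, Prtn3 and Srgn, and Igsf6 and Nkg7 in KI, and for Prtn3 and Ctsg in WT. In KI_Chd7del they overlapped for Mpo and Ctsg and for Ctsg and Elane. Within each library of KI_Chd7del and KI, however, Mpo lay above Ctsg, Ctsg above Elane and Elane above Prtn3. Ctsg over Mpo was 0.638 to 0.907 in these libraries, Ctsg over Elane 1.15 to 1.75 and Prtn3 over Elane 0.62 to 0.9. Srgn lay above Prtn3 in KI libraries 1 and 3, and Ctsg above Prtn3 in WT libraries 1 and 3. Srgn, Igsf6, Nkg7 and Prss57 followed in this order in KI_Chd7del and KI, at 15038, 6234, 5234 and 805 per kb in KI_Chd7del and at 12438, 3469, 2271 and 363 per kb in KI. They kept that order in WT, at 14658, 9639, 8894 and 1371 per kb, where Igsf6 and Nkg7 overlapped.

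The promoters of the 4 most abundant enzyme genes are shown because their differences in KI against WT ran from the strongest fall (Elane) to no call (Ctsg). RefSeq windows matched 7 of the 8 members, all but Prss57. They are sequences of GRCm38.p6 from 250 bases before to 50 after the start, 5′ to 3′ on the gene's strand. The window of Elane is chr10:79886062-79886361 (+), that of Prtn3 chr10:79879417-79879716 (+), that of Mpo chr11:87793534-87793833 (+) and that of Ctsg chr14:56102525-56102824 (-). Capitals mark matches, on either strand, to 3 of 4 motifs searched, which were TGTGGT or TGCGGT (RUNX), AGGAAG (PU.1), CAACNG or TAACNG (MYB) and TTGCNNAA (C/EBP), where the last had no match. No matches overlapped each other in these windows.
Elane: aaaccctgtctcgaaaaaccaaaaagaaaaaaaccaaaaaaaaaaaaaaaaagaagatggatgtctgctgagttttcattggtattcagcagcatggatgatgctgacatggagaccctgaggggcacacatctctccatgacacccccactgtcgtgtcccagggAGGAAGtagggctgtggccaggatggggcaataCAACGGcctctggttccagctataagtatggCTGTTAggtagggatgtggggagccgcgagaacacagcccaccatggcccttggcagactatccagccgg
Prtn3: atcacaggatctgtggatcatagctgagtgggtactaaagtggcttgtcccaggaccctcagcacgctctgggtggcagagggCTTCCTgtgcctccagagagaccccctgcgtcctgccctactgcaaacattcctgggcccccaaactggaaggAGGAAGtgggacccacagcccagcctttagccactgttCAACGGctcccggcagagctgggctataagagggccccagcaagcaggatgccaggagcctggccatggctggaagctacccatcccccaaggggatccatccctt
Mpo: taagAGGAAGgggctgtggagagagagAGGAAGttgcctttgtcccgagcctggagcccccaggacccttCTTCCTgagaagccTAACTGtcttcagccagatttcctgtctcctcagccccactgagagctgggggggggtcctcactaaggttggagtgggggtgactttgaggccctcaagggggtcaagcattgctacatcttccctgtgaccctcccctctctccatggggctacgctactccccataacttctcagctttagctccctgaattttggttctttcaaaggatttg
Ctsg: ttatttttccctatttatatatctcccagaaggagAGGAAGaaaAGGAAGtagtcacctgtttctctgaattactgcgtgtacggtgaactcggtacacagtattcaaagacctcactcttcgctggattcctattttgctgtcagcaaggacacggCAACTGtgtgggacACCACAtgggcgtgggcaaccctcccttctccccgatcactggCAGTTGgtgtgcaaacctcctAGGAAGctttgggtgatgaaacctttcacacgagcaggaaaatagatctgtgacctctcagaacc

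Elane and Prtn3, neighbours on chromosome 10, both held AGGAAG (at -84 in Elane and -94 in Prtn3) followed by CAACGG (at -51 and -56), counted in bases from the start. Mpo held AGGAAG or its complement at 3 places and TAACTG at -166. Ctsg was the only one of these 4 with a RUNX match, ACCACA at -79, beside 3 AGGAAG and 2 MYB matches. Among the other members with a window, Nkg7 also held ACCACA (at -83), and so did 1 of the 2 windows of Srgn. In KI against WT Nkg7 fell (log2 -2.03) and Srgn did not pass (-0.23). A link of matches with such differences was not tested. Of all 32851 windows of this length, 22.4% held the RUNX motif, 35.4% AGGAAG, 49.7% a MYB motif and 10.8% the C/EBP motif, and a match or its absence describes the letters of a window only.

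KI_Chd7del against KI asks what the floxed Chd7 alleles altered where the fusion was present. All 8 members were higher in KI_Chd7del, by 1.21-fold for Srgn to 2.38-fold for Nkg7, and all 8 passed an adjusted p of 0.05 (limma on log2(value + 1), adjusted over 15997 genes). Over all genes tested, 17.5% were called higher, 22.9% lower and 40.4% in either direction. No member had overlapping libraries between KI_Chd7del and KI, against 23.8% of all genes that were higher without overlap, 28.2% that were lower and 52% in either direction. The members' median log2 fold change was 0.85, beside -0.01 for all genes. Of all calls 43.4% were higher genes, and this split moved to 56.3% with upper-quartile scaling, to 56.9% with quantile normalisation and to 54.8% with a column total that left out the members and the late neutrophil genes.

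Mpo had 164347, 241378 and 230524 in KI_Chd7del and 92604, 124100 and 106779 in KI. Its lowest KI_Chd7del library, library 1, still lay above the highest KI library, library 2. The rise was 1.95-fold (log2 0.97, SE 0.17, limma adjusted p = 0.00268) and missed the threshold with quantile normalisation (log2 0.55, adjusted p = 0.0505).

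Elane had 23827, 32868 and 36895 in KI_Chd7del and 16842, 23067 and 13405 in KI. The groups came close, since KI_Chd7del library 1 and KI library 2 differed by little. The rise was 1.77-fold (log2 0.82, SE 0.20, limma adjusted p = 0.0121). Prtn3, which lies beside Elane, had 34422, 39587 and 40270 in KI_Chd7del and 21157, 27576 and 21246 in KI, a rise of 1.64-fold (log2 0.72, SE 0.11, limma adjusted p = 0.00133). Ctsg had 38170, 53604 and 44360 in KI_Chd7del and 23017, 33963 and 24582 in KI, a rise of 1.68-fold (log2 0.75, SE 0.17, limma adjusted p = 0.00871). For both, every KI_Chd7del library was above every KI library, and library 2 was the highest within KI.

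Prss57 had 1801, 2508 and 2557 in KI_Chd7del and 834, 1464 and 798 in KI. It rose 2.28-fold (log2 1.19, SE 0.22, limma adjusted p = 0.00329). Nkg7, a membrane protein of cytotoxic and myeloid granules, had 3961, 5250 and 5141 in KI_Chd7del and 1633, 2953 and 1641 in KI. Its rise of 2.38-fold was the largest among the members (log2 1.25, SE 0.21, limma adjusted p = 0.00211). Igsf6, an immunoglobulin superfamily membrane protein, had 14027, 13173 and 13480 in KI_Chd7del and 7228, 9437 and 5972 in KI, a rise of 1.83-fold (log2 0.87, SE 0.14, limma adjusted p = 0.00188). Mettl9, which overlaps Igsf6 on the opposite strand, had 4792, 4449 and 4278 in KI_Chd7del and 2664, 3742 and 2341 in KI (log2 0.66, limma adjusted p = 0.0104). In both Nkg7 and Prss57, KI libraries 1 and 3 lay close together and library 2 well above them.

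Srgn differed least between these groups. It had 31391, 35634 and 32048 in KI_Chd7del and 29058, 25082 and 27803 in KI (log2 0.27, SE 0.09, limma adjusted p = 0.0409). Serglycin carries granule proteins in many blood cells, mast cells and platelets among them. The call of Srgn was lost without KI_Chd7del library 2 or 3 (adjusted p = 0.129 and 0.072), without KI library 1, 2 or 3 (0.0501, 0.119 and 0.0801) and without WT library 1 (0.0526), as well as with quantile normalisation (0.0652) and without the mean-variance trend (0.0624).

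**Figure D1:**
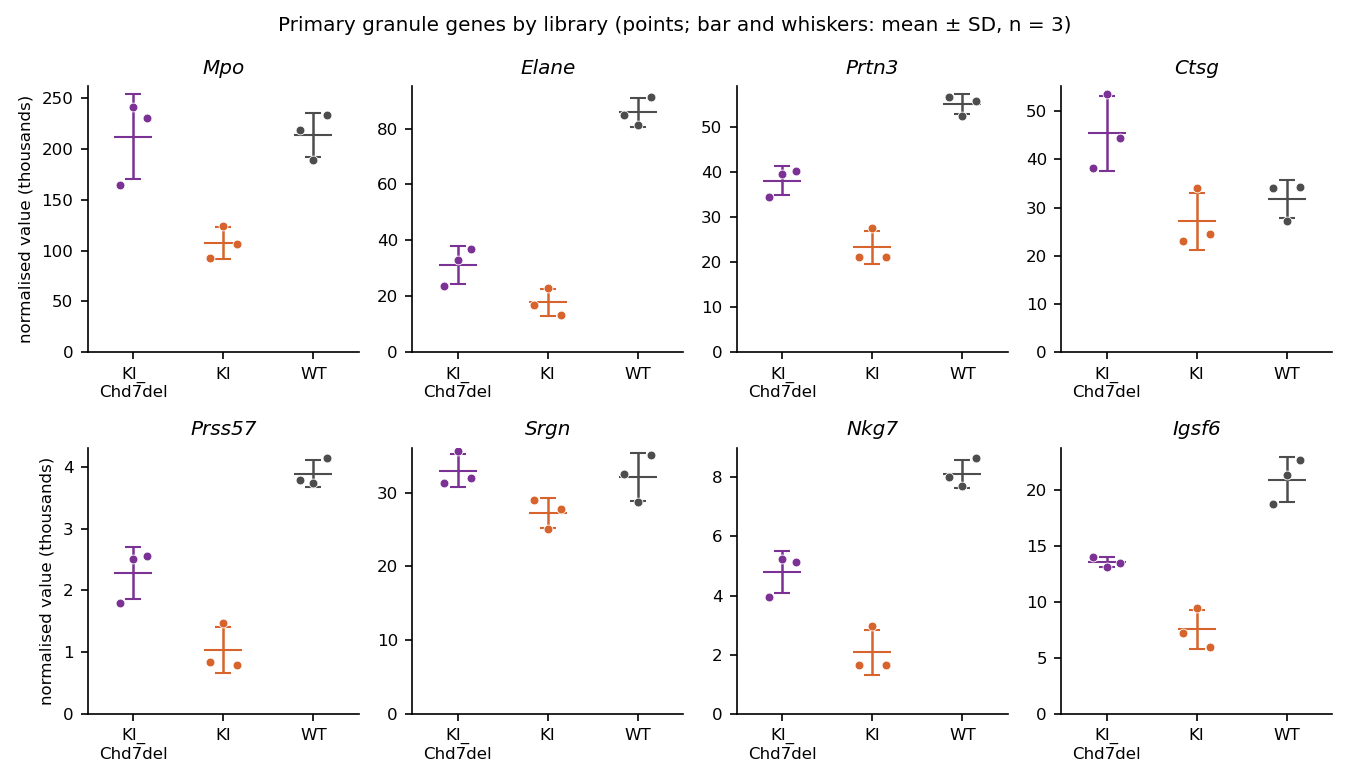
Normalised values (linear axes from 0) of the 8 primary granule genes in each library, by group, with the mean ± SD of 3 libraries. Every KI_Chd7del library lies above every KI library for each gene, while Elane, Prtn3, Prss57, Nkg7 and Igsf6 stay below WT and Ctsg lies above it.

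KI against WT asks how these genes differed from wild type with the fusion allele and Mx1-Cre, which cannot be told apart here, and with Chd7 not floxed. Of the 8 members 6 fell and none rose, where 27.2% of all genes were called lower, 31.8% higher and 58.9% in either direction. The same 6 did not overlap between the groups, against 31.8% of all genes lower without overlap, 35.9% higher and 67.6% in either direction. The members' median log2 fold change was -1.37, beside 0.02 for all genes. Of all calls 53.9% were higher genes, or 74.2% with column totals as the scale. That scaling put the all-gene median at 0.25.

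Elane fell most, to 0.202 of WT. It had 16842, 23067 and 13405 in KI, against 84716, 81378 and 91320 in WT (log2 -2.31, SE 0.20, limma adjusted p = 1.48e-05). Even the highest KI library stood far below the lowest WT library. Nkg7 fell to 0.246 of WT, with 1633, 2953 and 1641 in KI and 8021, 7721 and 8646 in WT (log2 -2.03, SE 0.21, limma adjusted p = 4.09e-05). Prss57 fell to 0.255 of WT, with 834, 1464 and 798 in KI and 3792, 3753 and 4147 in WT (log2 -1.97, SE 0.22, limma adjusted p = 6.26e-05). All 3 genes were widely separated between the groups.

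Igsf6 fell to 0.355 of WT, with 7228, 9437 and 5972 in KI and 18768, 21401 and 22725 in WT (log2 -1.50, SE 0.14, limma adjusted p = 2.45e-05). Igsf6 lies within Mettl9 on the opposite strand, and Mettl9 had 2664, 3742 and 2341 in KI and 8124, 9968 and 10076 in WT. The strand of the counting is not given in the sources used here, so reads of this pair may not have been told apart.

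Prtn3 fell to 0.421 of WT, with 21157, 27576 and 21246 in KI and 56698, 52520 and 55876 in WT (log2 -1.25, SE 0.11, limma adjusted p = 1.45e-05). In GENCODE M21, Prtn3 overlaps Plppr3 on the opposite strand, which moved the other way and had 1790, 2728 and 2267 in KI and 1766, 1464 and 1495 in WT. The RefSeq window of Prtn3 lies past the end of Plppr3, so this overlap rests on the GENCODE start of Prtn3. Mpo fell to 0.503 of WT, with 92604, 124100 and 106779 in KI and 218566, 189519 and 232841 in WT (log2 -0.99, SE 0.17, limma adjusted p = 0.000932), but with quantile normalisation its direction turned and no call was left (log2 0.10, adjusted p = 0.683).

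Ctsg and Srgn did not pass. Ctsg had 23017, 33963 and 24582 in KI and 34080, 27171 and 34166 in WT, and these ranges overlapped. The log2 difference of Ctsg was -0.24 (95% interval -0.63 to 0.15, limma adjusted p = 0.258). This interval did not reach the -0.99 estimated for Mpo, but it overlapped the interval of Mpo (-1.38 to -0.6). Without KI library 2, the highest of its group, Ctsg passed (log2 -0.41, adjusted p = 0.0473). Srgn had 29058, 25082 and 27803 in KI and 32625, 28747 and 35193 in WT (log2 -0.23, 95% interval -0.44 to -0.03, limma adjusted p = 0.0528). It passed without WT library 2 (log2 -0.31, adjusted p = 0.0203), with upper-quartile scaling (-0.33, 0.0147), with relative log expression scaling (-0.26, 0.0395) and with limma-voom (-0.23, 0.0473).

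KI_Chd7del against WT asks how far these genes stood from wild type with both changes. Of the 8 members 5 fell, 1 rose and 2 did not pass, where 24.3% of all genes were called lower, 24% higher and 48.4% in either direction. The 5 that fell did not overlap with WT, nor did the 1 that rose, against 28.8% and 28.9% of all genes in these directions and 57.6% in either. The members' median log2 fold change was -0.58, beside 0.02 for all genes. Higher genes made up 49.7% of all calls, or 78.7% when scaled to the column total (all-gene median 0.26) and 65.7% when the members and late neutrophil genes were left out of that total. The 3 comparisons share libraries pairwise, so their values for a gene are not independent.

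Elane stood at 0.358 of WT in KI_Chd7del, with 23827, 32868 and 36895 against 84716, 81378 and 91320 in WT (log2 -1.48, SE 0.20, limma adjusted p = 0.000413). Elane had the lowest level relative to WT among the members in this comparison too. Prss57 (0.581 of WT, limma adjusted p = 0.0168), Nkg7 (0.585 of WT, adjusted p = 0.0147), Igsf6 (0.649 of WT, adjusted p = 0.00645) and Prtn3 (0.691 of WT, adjusted p = 0.00363) were lower as well. Scaled to the column total, the calls of Prss57 (adjusted p = 0.0628), Nkg7 (0.0585) and Prtn3 (0.0587) were lost, and that of Prss57 was also lost without KI_Chd7del library 1 (0.0547) or WT library 3 (0.0553).

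Mpo averaged 212083 ± 41695 in KI_Chd7del and 213642 ± 22077 in WT (SD, n = 3), with overlapping libraries. Its log2 difference was -0.03 (95% interval -0.42 to 0.37, limma adjusted p = 0.915), and it was 0.66 with quantile normalisation (adjusted p = 0.0243). Srgn had a log2 difference of 0.04 (95% interval -0.17 to 0.25, limma adjusted p = 0.748), and 0.29 when scaled to the column total (adjusted p = 0.0252).

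Ctsg was the single member above WT. It had 38170, 53604 and 44360 in KI_Chd7del and 34080, 27171 and 34166 in WT, a 1.42-fold rise with no overlap (log2 0.51, SE 0.17, limma adjusted p = 0.0362). This call rested on most of the libraries, since it was lost without KI_Chd7del library 2 or 3 (adjusted p = 0.124 and 0.0723), without WT library 1, 2 or 3 (0.0517, 0.128 and 0.0566) and without the mean-variance trend (0.06). The log2 value of Ctsg stayed positive in all alternatives run, from 0.38 to 0.75.

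**Figure D2:**
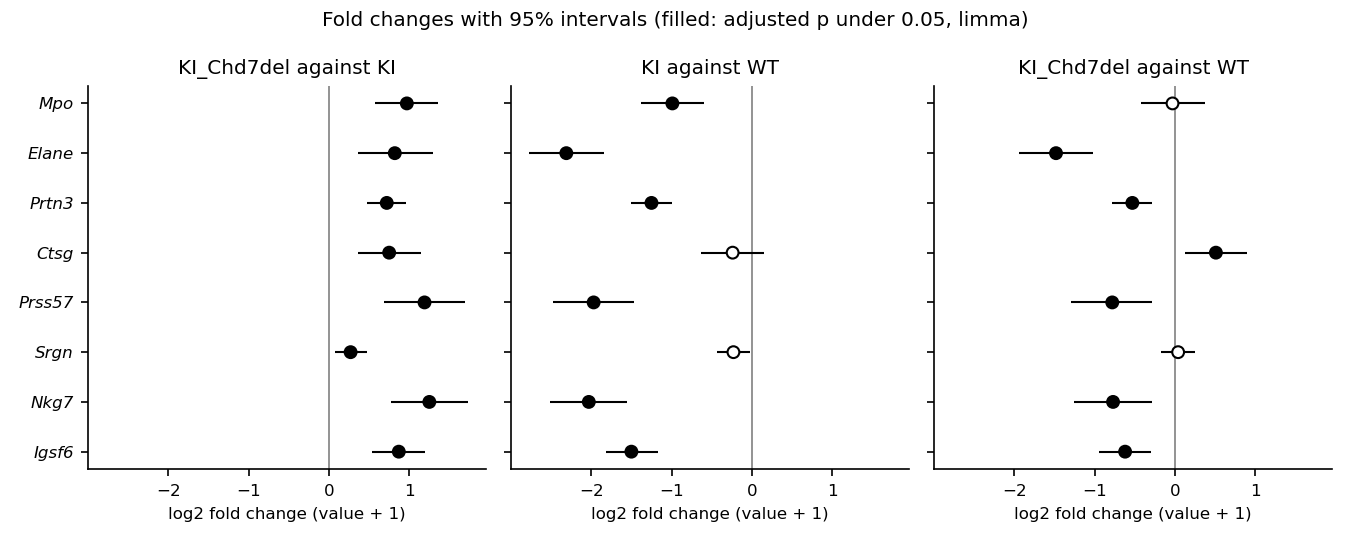
Log2 fold changes of the 8 genes with 95% intervals in the 3 comparisons, filled where the adjusted p was under 0.05. All 8 lie above 0 in KI_Chd7del against KI, whereas against WT Elane lies lowest (-2.31 in KI, -1.48 in KI_Chd7del) and Ctsg at -0.24 and 0.51.

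The proportions between the enzymes differed from WT in both groups with the fusion. The ratio of Elane to Mpo, per kb, was 0.504, 0.474 and 0.557 in KI_Chd7del, 0.633, 0.647 and 0.437 in KI, and 1.35, 1.49 and 1.36 in WT. KI_Chd7del and KI overlapped in this ratio, and both lay apart from WT. The ratio of Ctsg to Elane was 1.53, 1.55 and 1.15 in KI_Chd7del, 1.3, 1.4 and 1.75 in KI, and 0.383, 0.318 and 0.356 in WT, again with both fusion groups apart from WT and overlapping each other. Prss57 to Mpo showed the same arrangement, with 0.0125 to 0.0134 in KI_Chd7del, 0.009 to 0.0142 in KI and 0.0209 to 0.0238 in WT. A ratio within a library does not depend on its scaling factor, and no test was made of these ratios, since the pairs were chosen with the members' values known.

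Prtn3 to Mpo moved less, with 0.324 to 0.414 in KI_Chd7del, 0.393 to 0.452 in KI and 0.474 to 0.548 in WT. Nkg7 to Elane was nearly the same in the 3 WT libraries, at 0.102 in each, but 0.150 to 0.179 in KI_Chd7del and 0.104 to 0.138 in KI. Srgn to Mpo was 0.217 to 0.298 in KI_Chd7del, 0.315 to 0.489 in KI and 0.233 to 0.237 in WT, so that here KI alone stood apart from WT.

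**Figure D3:**
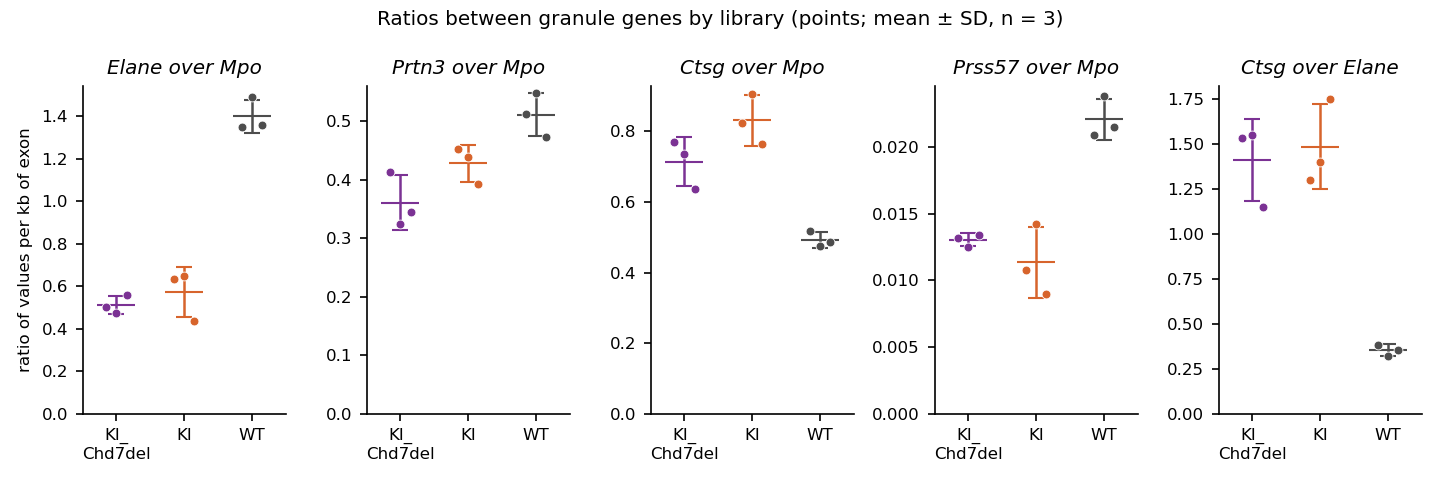
Ratios between granule genes, from values per kb of exon, in each library, with the mean ± SD of 3 libraries. Elane over Mpo is 0.512 ± 0.042 in KI_Chd7del, 0.572 ± 0.117 in KI and 1.40 ± 0.0797 in WT, and Ctsg over Elane is 1.41 ± 0.228, 1.48 ± 0.233 and 0.353 ± 0.0327 in these groups.

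Single libraries moved with several members at once. KI library 2 was the highest of its group for 7 of the 8 members, all but Srgn, and for 17 of 18 late neutrophil genes. KI_Chd7del library 1 was the lowest of its group for 7 members, all but Igsf6, yet the highest for 11 of the 18 late neutrophil genes. The highest library exceeded the lowest by 1.72-fold for Elane and 1.83-fold for Prss57 within KI, and by 1.12-fold and 1.10-fold within WT.

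Late neutrophil genes, which encode the secondary and tertiary granules and products of mature cells, are the next wave of the same lineage. Of 18, 15 rose and none fell in KI_Chd7del against KI (median log2 1.77), and all 18 fell in KI against WT (median -3.10), although the chitinase-like gene Chil3 turned to 0.72 with quantile normalisation. With the same setting Chil3 was called lower in KI_Chd7del against KI (log2 -1.31), where it did not pass in the main analysis (-0.33). Against WT, 16 fell in KI_Chd7del (median -1.38). Beside this and each list below stand the shares of all genes called in either direction. They were 40.4% in KI_Chd7del against KI, 58.9% in KI against WT and 48.4% in KI_Chd7del against WT. The summed share of the 18 genes in a library was 4.06% to 5.23% in KI_Chd7del, 0.865% to 2.57% in KI and 11.2% to 13.3% in WT. S100a8, a calcium-binding protein of maturing neutrophils, averaged 203717 ± 46596 in KI_Chd7del, 47215 ± 32958 in KI and 852889 ± 73507 in WT (SD, n = 3), and Ly6g, a surface protein of mature mouse neutrophils, 1806 ± 310, 596 ± 409 and 12359 ± 2297 in these groups. Their part in the members' changes was not tested.

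Other genes of the promyelocyte stage were read as a list of 9. Of these, 7 rose and none fell in KI_Chd7del against KI (median log2 0.82), 6 fell and none rose in KI against WT (-0.95), and 4 fell and 1 rose in KI_Chd7del against WT (-0.21). Fcnb, a ficolin stored in granules, had 11144, 9368 and 10571 in KI_Chd7del, 3208, 5398 and 1910 in KI, and 39481, 38231 and 41158 in WT. Its KI libraries did not reach those of either other group. Ms4a3, a marker of granulocyte and monocyte progenitors, averaged 8809 ± 1624 in KI_Chd7del, 4064 ± 2048 in KI and 23604 ± 1594 in WT (SD, n = 3). Hk3, a hexokinase, and Clec12a, an inhibitory lectin receptor, fell in KI against WT by 1.46 and 1.31 on the log2 scale and rose in KI_Chd7del against KI by 0.82 and 0.86. Cst7, the inhibitor cystatin F, did not pass in any comparison (log2 0.09, -0.08 and 0.01).

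Ctsc, which encodes cathepsin C, had 4852, 6350 and 5713 in KI_Chd7del, 36195, 30249 and 36241 in KI, and 2658, 2891 and 2625 in WT. No group overlapped another. Ctsc rose 12.5-fold in KI against WT (log2 3.65, SE 0.11, limma adjusted p = 7.72e-08), and in KI_Chd7del it stood at 0.164 of KI (log2 -2.61, SE 0.11, limma adjusted p = 5.5e-06) and at 2.06 times WT (log2 1.04, adjusted p = 7.47e-05). Cathepsin C is also made by monocytes, mast cells and cytotoxic lymphocytes.

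Inhibitors of serine proteases were split. Of 7 tested, 3 rose and 2 fell in KI_Chd7del against KI (median log2 -0.04), and 2 rose and 5 fell in KI against WT (-1.82) and in KI_Chd7del against WT (-1.59). Serpinb1a, a cytosolic inhibitor of elastase, proteinase 3 and cathepsin G, averaged 9008 ± 938 in KI_Chd7del, 6592 ± 1797 in KI and 33681 ± 1795 in WT (SD, n = 3). Both fusion groups lay far below WT, and the rise of 0.48 in KI_Chd7del against KI just passed (limma adjusted p = 0.0431). Slpi, a secreted inhibitor of elastase and cathepsin G, averaged 1864 ± 111 in KI_Chd7del, 527 ± 234 in KI and 5643 ± 886 in WT. Serpina3g and Serpinb9, inhibitors of lysosomal and cytotoxic proteases, went the other way, with log2 changes of -1.42 and -0.73 in KI_Chd7del against KI and of 2.88 and 2.15 in KI against WT.

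Other azurophil and lysosomal contents moved in both directions. Of 14 tested, 1 rose and 7 fell in KI_Chd7del against KI (median log2 -0.27), 7 rose and 3 fell in KI against WT (0.19), and 4 rose and 5 fell in KI_Chd7del against WT (0.01). The shares of all genes called in either direction were 40.4%, 58.9% and 48.4%. Cd63, a tetraspanin of the primary granule membrane, was the gene of this list that rose in KI_Chd7del against KI, with 2929, 3801 and 4071 in KI_Chd7del, 1584, 1730 and 1095 in KI, and 12865, 14205 and 14744 in WT. Cd68, a membrane glycoprotein of macrophage lysosomes, had 1811, 2403 and 2152 in KI_Chd7del, 7732, 5761 and 6375 in KI, and 1282, 1658 and 1567 in WT, so its order was the reverse. The lysosomal enzyme genes Asah1 and Arsa fell by 0.68 and 0.31 on the log2 scale in KI_Chd7del against KI, and they were higher by 0.92 and 0.81 in KI against WT. Lyz2 was lower than WT in KI (log2 -1.12) and in KI_Chd7del (-1.08), and did not pass in KI_Chd7del against KI (0.04). With quantile normalisation both calls of Lyz2 against WT were lost, and its value in KI against WT turned to 0.51.

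Regulators of granule genes changed in both directions. Of 12, 5 rose and 2 fell in KI_Chd7del against KI (median log2 0.25), 3 rose and 7 fell in KI against WT (-0.50), and 4 rose and 5 fell in KI_Chd7del against WT (-0.26). Cebpe, a factor of the step from promyelocyte to myelocyte, had 4042, 3740 and 3918 in KI_Chd7del, 1147, 1906 and 611 in KI, and 11324, 12743 and 11230 in WT. Its log2 change was 1.82 in KI_Chd7del against KI (SE 0.32, limma adjusted p = 0.00246) and -3.41 in KI against WT (adjusted p = 2.05e-05). Gfi1, a repressor needed for neutrophil formation, had 3484, 3129 and 3301 in KI_Chd7del, 1152, 2111 and 1099 in KI, and 4507, 4488 and 4905 in WT. KI was thus the lowest group for both.

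Myb, a factor of early progenitors, rose by 0.91 in KI_Chd7del against KI (limma adjusted p = 0.000144) and fell by 0.61 in KI against WT (adjusted p = 0.000297), and Cebpd rose by 0.86 and fell by 1.84 in these comparisons. Irf8, which favours monocytes over neutrophils, was higher in both (log2 0.56 and 0.98). Runx1, the partner of CBFB, and Klf4, a monocyte factor, had log2 changes of -0.53 and -0.88 in KI_Chd7del against KI and of 1.15 and 2.56 in KI against WT, all past the threshold. Spi1, which encodes PU.1, fell by 0.84 in KI against WT and did not pass in KI_Chd7del against KI (log2 0.11, limma adjusted p = 0.217), where it did under 3 other scalings, among them quantile normalisation (log2 0.21). Csf3r, the G-CSF receptor, and Cebpa fell by 0.91 and 0.39 in KI against WT, the Cebpa call being lost when scaled to the column total (log2 -0.16), and neither passed in KI_Chd7del against KI, where Cebpa did with quantile normalisation (log2 0.23). Cebpb and Cbfb did not pass in any comparison, with log2 values of -0.28 to -0.06 and -0.07 to -0.01, and the sign of Cbfb depended on the scaling in all 3.

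**Figure D4:**
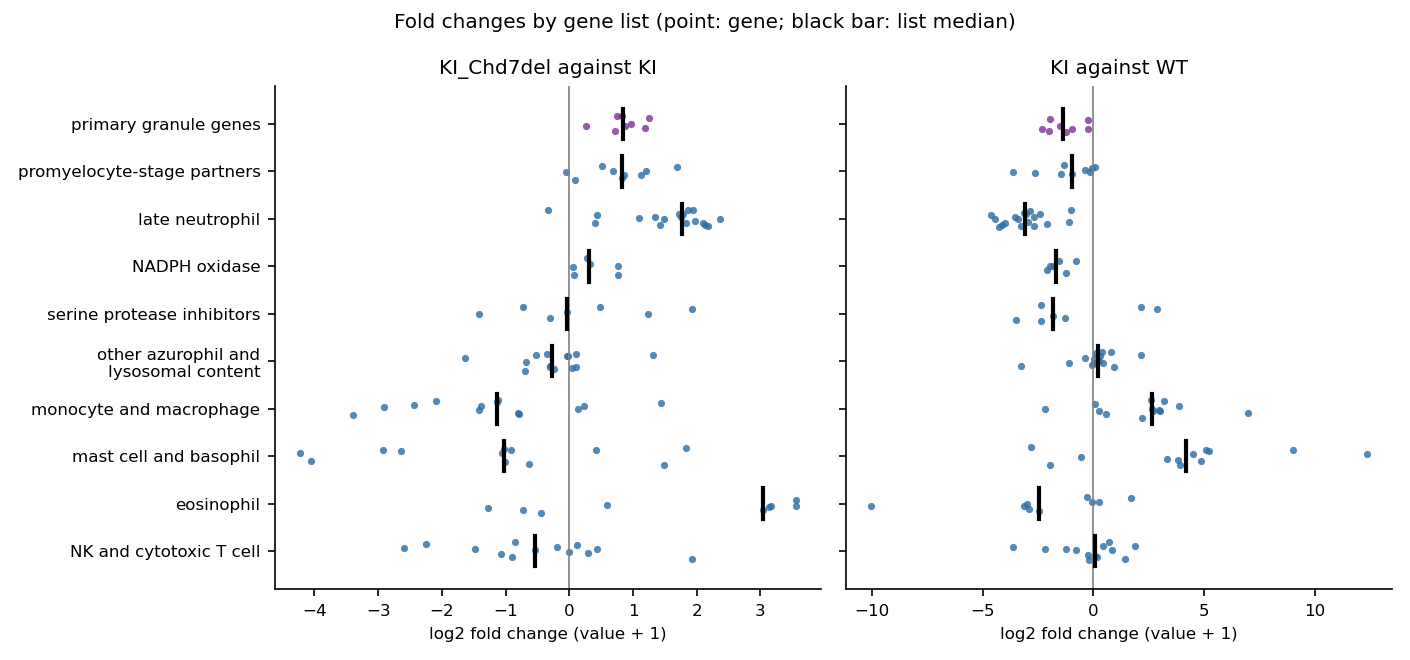
Log2 fold changes of the tested genes of 10 lists, 1 point per gene, with the list median as a black bar. The primary granule genes have medians of 0.85 in KI_Chd7del against KI and -1.37 in KI against WT, between 0 and the medians of the late neutrophil genes (1.77 and -3.10), while those of the monocyte and mast cell lists have the opposite signs.

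Markers of other cells that can express members were read beside them. NK and cytotoxic T cells express Nkg7, and of 13 such genes 1 rose and 3 fell in KI_Chd7del against KI, 2 rose and 2 fell in KI against WT, and 2 rose and 6 fell in KI_Chd7del against WT. Over all genes, 40.4%, 58.9% and 48.4% were called in either direction in these comparisons. The summed share of the 13 genes was 0.00315% to 0.00763% in KI_Chd7del, 0.00568% to 0.00987% in KI and 0.00501% to 0.00771% in WT. Nkg7 alone made up 0.0104% to 0.0138% in KI_Chd7del, 0.00419% to 0.0077% in KI and 0.0169% to 0.0187% in WT. The NK receptor gene Ncr1 had 19, 57 and 90 in KI_Chd7del, 9, 14 and 12 in KI, and 133, 172 and 162 in WT, in the order of Nkg7, while the perforin gene Prf1 had 23, 18 and 32 in KI_Chd7del, 68, 193 and 120 in KI, and 48, 88 and 83 in WT. No marker of this list was at 0 in any library.

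Monocytes express Igsf6 and low levels of Mpo. Of 13 monocyte and macrophage genes, 1 rose and 10 fell in KI_Chd7del against KI, 10 rose and 1 fell in KI against WT, and 9 rose and 1 fell in KI_Chd7del against WT, with median log2 changes of -1.13, 2.64 and 0.86. Their share was 0.388% to 0.429% in KI_Chd7del, 0.874% to 0.953% in KI and 0.165% to 0.177% in WT. No gene of this list was at 0 in any library. The dendritic cell list, with 2 higher and 4 lower of 10 in KI_Chd7del against KI and 7 higher and 1 lower in KI against WT, had shares of 0.0751% to 0.120%, 0.209% to 0.240% and 0.0317% to 0.0509% in KI_Chd7del, KI and WT.

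Mast cells and basophils express Srgn and, in humans, Ctsg. Of 12 tested genes of these cells, 3 rose and 8 fell in KI_Chd7del against KI, 9 rose and 3 fell in KI against WT, and 8 rose and 1 fell in KI_Chd7del against WT. Their share was 0.152% to 0.198% in KI_Chd7del, 0.246% to 0.368% in KI and 0.0599% to 0.0615% in WT. The mast cell genes Mcpt4 and Tpsab1 were at 0 in every WT library, but both were low throughout. Mcpt4 had 1 to 7 in KI_Chd7del and 10 to 32 in KI, and the tryptase gene Tpsab1 was at 0 or 1 in all 9. Other genes of the list were expressed in WT, such as Ms4a2 with 851 to 1024, though it had 21960 to 30842 in KI and 11302 to 18441 in KI_Chd7del. Prss34, among those that fell in KI against WT, was highest in WT, with 5246 to 5917. Eosinophil genes had shares of 0.0442% to 0.156% in KI_Chd7del, 0.0259% to 0.0381% in KI and 0.057% to 0.112% in WT. Of 9, 5 were higher and 2 lower in KI_Chd7del against KI (median log2 3.04), and 1 was higher and 5 lower in KI against WT (-2.47). In KI_Chd7del against WT 1 was higher and 2 lower (0.16). The eosinophil share was lowest within KI_Chd7del in library 1, where 7 members were lowest too. The part of these cells in the members' changes was not tested.

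The genes around Elane and Ctsg were read beside them. Within 100 kb of the Elane start lay 13 protein-coding genes besides the members, of which 10 were tested, and 2 of these were higher and 2 lower in KI_Chd7del against KI, and 3 higher and 4 lower in KI against WT. Over all genes, 40.4% and 58.9% were called in either direction in these comparisons, so the counts are no result about this region. Palm, the neighbour of Prss57 and 92.7 kb from Elane, fell in KI against WT (log2 -0.93) and rose in KI_Chd7del against KI (0.43), as did Arid3a (-1.19 and 0.57). R3hdm4 and Kiss1r fell in KI against WT too (-1.28 and -1.34) but did not pass in KI_Chd7del against KI (0.21 and 0.33), where R3hdm4 passed under 4 other scalings. Ptbp1, between Prss57 and Prtn3, had log2 values of 0.21 and 0.02, and its call in KI against WT was lost with upper-quartile or relative log expression scaling, while Plppr3, which overlaps Prtn3, had 0.51 and 0.22. Tmem259, 98.1 kb from Elane, went the other way, with log2 0.39 in KI against WT and -0.36 in KI_Chd7del against KI. Med16 was called lower in KI_Chd7del against KI (log2 -0.17), a call lost under the 5 other scalings. It did not pass in KI against WT (0.04). Cfd, next to Elane, stayed between 3 and 15 in every library and was not tested.

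Around Ctsg, which lies in the mast cell protease and granzyme cluster of chromosome 14, 4 of 9 neighbours were tested. Mcpt8, a basophil protease 17.3 kb away, had 1889, 2499 and 3243 in KI_Chd7del, 925, 776 and 953 in KI, and 3885, 2992 and 3501 in WT. It was the neighbour of Ctsg that fell in KI and rose in KI_Chd7del against KI. Mcpt1 and Mcpt2, farther along, had the opposite pattern, with 168 to 3047 and 19 to 374 in KI_Chd7del, 16539 to 21135 and 1849 to 2634 in KI, and 0 to 20 and 3 to 4 in WT. Mcpt genes resemble each other closely, so their values depend on how shared reads were assigned. The granzyme genes Gzmn, Gzmg and Gzmd were listed at 0 in every library, and Gzme was at 0 in all but 1.

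**Figure D5:**
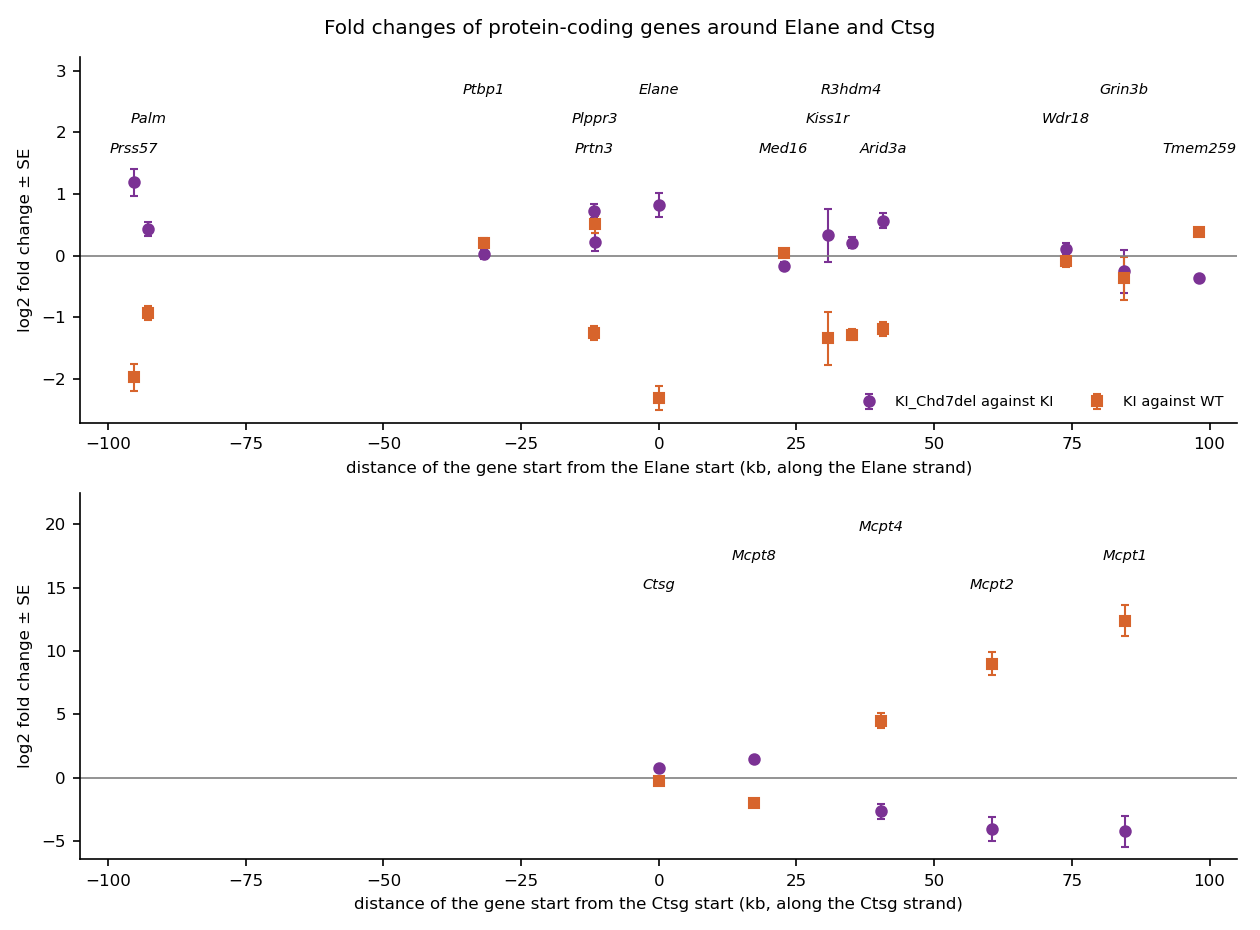
Log2 fold changes (± SE) of tested protein-coding genes within 100 kb of Elane (top) and of Ctsg (bottom), by distance of their starts in kb. Around Elane, the members Prtn3 and Prss57 and the genes Palm, Arid3a, R3hdm4 and Kiss1r lie below 0 in KI against WT and above 0 in KI_Chd7del against KI. Ptbp1 and Wdr18 lie near 0, and Tmem259 lies the other way (0.39 and -0.36). Around Ctsg the Mcpt genes spread from -1.96 to 12.38 in KI against WT.

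Among genes averaging at least 100, those most like the mean profile of Mpo, Elane, Prtn3, Ctsg and Prss57 over the 9 libraries were Ubash3a (r = 0.993), Atp8b4 (0.993), Itih5 (0.992), Uhrf1 (0.992), Pfkfb3 (0.987), Hnmt (0.986), Tst (0.983) and Brd3 (0.983). These are Pearson correlations of log2(value + 1) that follow the differences between 3 groups, and they are given as a description. Hnmt, a histamine-degrading enzyme, had 557, 672 and 585 in KI_Chd7del, 211, 332 and 196 in KI, and 895, 892 and 977 in WT. Tst, a sulphur transferase, had 680, 771 and 787 in KI_Chd7del, 246, 385 and 228 in KI, and 1266, 1358 and 1340 in WT. Of the members, Prss57 (r = 0.996), Nkg7 (0.995) and Prtn3 (0.989) lay closest to that profile, which holds Prss57 and Prtn3 themselves, while Srgn (0.651) and Ctsg (0.542) lay farthest from it.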

How the data were processed

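Gene values of 9 libraries of c-KIT+ mouse bone marrow cells (3 groups of 3) were analysed. The deposited values have the unit score: from regular gaps and doublings among their low whole numbers, they were taken to be read numbers that the authors divided by 1 size factor per library and rounded, a step that no label states. The build GRCm38 and the tools STAR 2.4, RSEM, CASAVA 1.8.2 and DESeq2 are named, per the submitters' processing notes, without roles or order, and the annotation release and strand setting are not given in the sources used here. These values are not counts, so no count test was run. Depth, which rests on that reading, was estimated by a search for the size factor that explains those gaps, checked on simulated data, and counting error was small for the members, whose lowest value was 798.

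Symbols, positions and exon lengths came from GENCODE M21 (GRCm38). The test took the genes that reached 10 in 3 or more libraries and used limma 3.58.1 (mean-variance trend, log2(value + 1), all 9 libraries, no replicate block), 2-sided, with Benjamini-Hochberg adjustment over 15997 genes at 0.05. Fold changes are on that scale and understate changes of low genes. The fit was tested on simulated data. The 17 gene lists, the members among them, were chosen with earlier results of these data known, so no p was adjusted over a list. Named genes were drawn from the members, all regulators, Ctsc, Cst7, Ms4a3 and up to 4 genes of each other list by smallest adjusted p. The 8 genes most like the members' profile and the neighbours within 100 kb belonged to this set too. Not every gene of the set is named in the text. Chil3, Lyz2, Mcpt4, Tpsab1 and the overlapping gene Mettl9 were named after their values were seen. Software was R 4.3.3, Python 3.11.15, numpy 2.4.6, pandas 2.3.3 and matplotlib 3.10.9. Alternatives were other filters, pseudocounts and scalings, limma without the trend, limma-voom, fits of only the 2 groups compared, a replicate block and each library left out in turn.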

Additional observations from a re-analysis of the deposited data

How the results depend on the processing

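The counts of members called moved within 6 to 8 in KI_Chd7del against KI, 5 to 7 in KI against WT and 4 to 7 in KI_Chd7del against WT over all alternatives run, and leaving out 1 library gave 7 to 8, 6 to 7 and 4 to 6. For single members, 1 value reversed and 5 gained a call in KI against WT, 10 lost one in KI_Chd7del against KI, and 7 reversed, 11 lost and 1 gained a call in KI_Chd7del against WT, while 170, 166 and 157 values kept direction and side of the threshold in these comparisons. Mpo in KI against WT was 0.10 with quantile normalisation. Mpo in KI_Chd7del against WT, which was not called, was 0.22 scaled to the column total, 0.09 without the members and late neutrophil genes in that total, and 0.66 with quantile normalisation, and it ranged from -0.13 to 0.15 with 1 library left out, being 0.15 without KI_Chd7del library 1 and 0.04 without WT library 3. Srgn there ranged from -0.04 to 0.11, being -0.02 without KI_Chd7del library 2 and -0.04 without WT library 2. The cause was not tested. With a replicate block, 7 members passed in KI_Chd7del against KI, where Srgn was lost (adjusted p = 0.062), 6 in KI against WT and 6 in KI_Chd7del against WT, with 5952, 9121 and 7411 genes called, against 6464, 9429 and 7735 without it. Same-numbered libraries correlated from -0.15 to 0.11 in their deviations from group means, and not every library correlated best with its own number, so the numbers were not taken to pair the samples. Leaving out a library leaves 2 in its group, whose spread is then taken mostly from the other groups.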

Other observations

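Genes that build the sulphated chains of serglycin were read as a list. Of 10, 3 rose and 2 fell in KI_Chd7del against KI, 2 rose and 3 fell in KI against WT, and 3 rose and 3 fell in KI_Chd7del against WT, near the shares of all genes called in either direction (40.4%, 58.9% and 48.4%). Ndst2, a sulphotransferase needed for heparin in mouse mast cells, had 5109, 4824 and 3870 in KI_Chd7del, 11519, 8656 and 12373 in KI, and 1542, 1615 and 1525 in WT. Csgalnact2, an enzyme that starts chondroitin chains, was lowest in KI, with 6161, 6091 and 6247 in KI_Chd7del, 4705, 4827 and 4539 in KI, and 10594, 9650 and 11182 in WT. The groups did not overlap for either gene, and their orders were opposite.

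The NADPH oxidase, which supplies the peroxide used by myeloperoxidase, was lower in both fusion groups. All 6 genes fell in KI against WT (median log2 -1.69) and in KI_Chd7del against WT (-1.26), and 3 rose in KI_Chd7del against KI (0.30). Cybb, its catalytic subunit, had 34177, 30945 and 33175 in KI_Chd7del, 27408, 36263 and 19914 in KI, and 83640, 100763 and 102710 in WT, and did not pass between the fusion groups (log2 0.28, limma adjusted p = 0.266). Ncf1, a cytosolic subunit, averaged 19716 ± 1643 in KI_Chd7del, 11926 ± 3768 in KI and 49349 ± 6606 in WT (SD, n = 3).

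Of 12 tested genes for folding, processing and sorting of granule proteins, 2 rose and 2 fell in KI_Chd7del against KI and 3 rose and 2 fell in KI against WT, and the members of this list other than Ctsc had log2 values within 0.42 of 0 in the first of these. Since 40.4% and 58.9% of all genes were called in either direction in these comparisons, the counts are no result about this list. B cell, erythroid and stem cell lists had 6 higher and 0 lower of 9, 1 higher and 8 lower of 10, and 7 higher and 2 lower of 10 genes in KI_Chd7del against KI.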
